A study of Homo sapiens with 7 samples.

Results

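The BCL2 family genes examined here are 4 survival genes (BCL2, BCL2L1, MCL1 and BCL2A1) and 6 death genes (BAX, BAK1, BID, BCL2L11, PMAIP1 and BBC3), 10 of the 20163 protein-coding genes in the annotation. The rule lists them by name and uses no binding value, though the list was drawn up with earlier results of these data known. Every one was found in the annotation. Chromatin immunoprecipitation with sequencing was done in Kasumi-1 cells, a human myeloid leukemia line carrying the t(8;21) translocation, which fuses AML1 (RUNX1) to ETO. The lists describe AML1 and its fusion AML1-ETO, the corepressor N-CoR, the coactivator p300, which is an acetyltransferase, and trimethylated lysine 4 of histone H3 (H3K4me3), a mark of active or poised transcription starts. The AML1 antibody was directed at the C-terminal part that the fusion lacks, and AML1-ETO was precipitated with an antibody to ETO. All 5 groups come from the same line with no treatment named, so there are no arms to compare, and each group is a single peak list made from 2 pooled biological replicates.

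A peak is given as a 100 bp window around a summit, the point of highest signal, with no height or score. There are 11692 summits for AML1 and 18087 for the fusion, 10004 for N-CoR, and 11020 and 19632 for p300 and H3K4me3. A summit was assigned to a gene when it lay within 5 kb of the gene body, and a wider view used 50 kb. Of all 5 lists, 87 summits lay within 5 kb of the 10 members and 160 within 50 kb, and none fell near 2 members. Since there are no replicate lists, no test between groups was possible, and the lists carry no read counts, so the depth behind a summit is not known from them. Intervals below are exact 95% intervals that cover counting error over summits only, and the members are not replicates of each other. As a check of the cell type, 6 of 6 myeloid progenitor genes (MPO, ELANE, CD34, KIT, SPI1 and CEBPE) had an H3K4me3 summit within 1 kb of a transcription start, against 0 of 6 genes of other cell types (CD3E, CD3D, MS4A1, CD79A, ALB and APOA1).

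Proteins of this family decide whether the outer membrane of the mitochondrion is opened, the committing step of the intrinsic route to apoptosis. BAX and BAK1 form the pores, the survival proteins bind and restrain them, and the BH3-only proteins BID, BCL2L11 (BIM), PMAIP1 (NOXA) and BBC3 (PUMA) neutralise the survival proteins or activate the pore formers. Myeloid cells depend on survival members such as MCL1, and BCL2 is a drug target in acute myeloid leukemia.

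The windows below carry the binding described in the following paragraphs. For each member with an AML1-ETO or AML1 summit, the first set gives the AML1-ETO window (AML1 at BAX and BAK1, which had no AML1-ETO) overlapped by the most other proteins, with ties settled by the lower peak number. Each is 100 bp of the plus strand of GRCh37, 5′ to 3′, in lower case, with capitals for TGTGGT (the core bound by Runx factors), GAGGAA (the core bound by PU.1) and AGGAAG (an ETS core) on either strand. GAGGAAG holds GAGGAA and AGGAAG at once, so these matches can overlap.
BCL2, AML1-ETO window at chr18:60805458-60805557: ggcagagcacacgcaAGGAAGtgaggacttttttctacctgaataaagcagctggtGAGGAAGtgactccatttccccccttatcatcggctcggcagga
BCL2L1, AML1-ETO window at chr20:30263311-30263410: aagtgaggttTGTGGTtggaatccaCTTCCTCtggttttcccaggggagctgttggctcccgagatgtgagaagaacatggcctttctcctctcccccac
MCL1, AML1-ETO window at chr1:150533560-150533659: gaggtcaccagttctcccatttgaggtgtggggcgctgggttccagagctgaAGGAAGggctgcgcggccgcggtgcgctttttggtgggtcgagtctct
BAX, AML1 window at chr19:49458004-49458103: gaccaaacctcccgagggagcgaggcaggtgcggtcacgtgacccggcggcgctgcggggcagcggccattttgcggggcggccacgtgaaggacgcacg
BAK1, AML1 window at chr6:33539017-33539116: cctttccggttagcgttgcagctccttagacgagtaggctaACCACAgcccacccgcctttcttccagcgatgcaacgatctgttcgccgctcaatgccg
BID, AML1-ETO window at chr22:18246338-18246437: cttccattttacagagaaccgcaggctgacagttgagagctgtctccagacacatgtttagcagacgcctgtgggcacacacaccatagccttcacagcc
PMAIP1, AML1-ETO window at chr18:57572162-57572261: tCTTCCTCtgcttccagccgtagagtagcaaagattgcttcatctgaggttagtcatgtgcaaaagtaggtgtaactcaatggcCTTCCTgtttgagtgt
BBC3, AML1-ETO window at chr19:47731174-47731273: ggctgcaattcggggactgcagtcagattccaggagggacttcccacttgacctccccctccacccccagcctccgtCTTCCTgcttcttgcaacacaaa

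Of these 8 windows, TGTGGT is in those at BCL2L1 and BAK1. The windows of BCL2, BCL2L1 and PMAIP1 hold GAGGAA, while those of BAX and BID hold none of the 3 motifs. At BID, 3 AML1-ETO windows tied at 2 overlapping proteins, and the other 2 do hold motifs: GAGGAA 2 times in the one printed next, and TGTGGT and AGGAAG in the upstream one. The BAX window was tied with the AML1 window beside FTL, which holds none either. A match to these letters is a description of the window and not evidence of a bound factor, and the lack of one says only that the letters are not there.

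A further 5 windows were added after the values were seen, because the site with 4 proteins at BID, the N-CoR sites of the survival genes and sites with all 4 proteins outside the 5 kb limit turn on them.
BID, AML1-ETO window at chr22:18254472-18254571: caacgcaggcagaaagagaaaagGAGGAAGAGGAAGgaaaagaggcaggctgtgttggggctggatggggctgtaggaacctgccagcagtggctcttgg
BCL2A1, N-CoR window at chr15:80263634-80263733: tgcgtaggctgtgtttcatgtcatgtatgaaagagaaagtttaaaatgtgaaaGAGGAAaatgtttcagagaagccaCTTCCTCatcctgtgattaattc
BCL2L1, N-CoR window at chr20:30262897-30262996: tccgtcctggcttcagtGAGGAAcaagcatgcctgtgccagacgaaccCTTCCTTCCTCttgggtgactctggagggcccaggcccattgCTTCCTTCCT
BCL2, AML1-ETO window at chr18:60767462-60767561: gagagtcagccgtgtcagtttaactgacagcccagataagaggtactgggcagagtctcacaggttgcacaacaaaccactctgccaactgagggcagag
BBC3, AML1-ETO window at chr19:47747453-47747552: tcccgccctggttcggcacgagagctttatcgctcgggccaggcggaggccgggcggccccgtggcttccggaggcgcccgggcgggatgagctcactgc

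Across the family, AML1-ETO summits lay within 5 kb of 6 of the 10 members, set beside 41.3% of all protein-coding genes. AML1 was near 7 (background 34.9%), N-CoR near 6 (26.7%), p300 near 9 (45.5%) and H3K4me3 near 9 (68.0%). Within 50 kb, AML1-ETO was near 8 (66.5%), AML1 near 9 (59.8%), N-CoR near 8 (48.7%), p300 near 10 (64.4%) and H3K4me3 near 10 (80.9%). The members with no AML1-ETO within 5 kb were BCL2A1, BAX, BAK1 and BCL2L11, and for BAK1 and BCL2L11 there was none within 50 kb. BID alone held 7 of the 16 AML1-ETO summits within 5 kb.

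**Figure D1:**
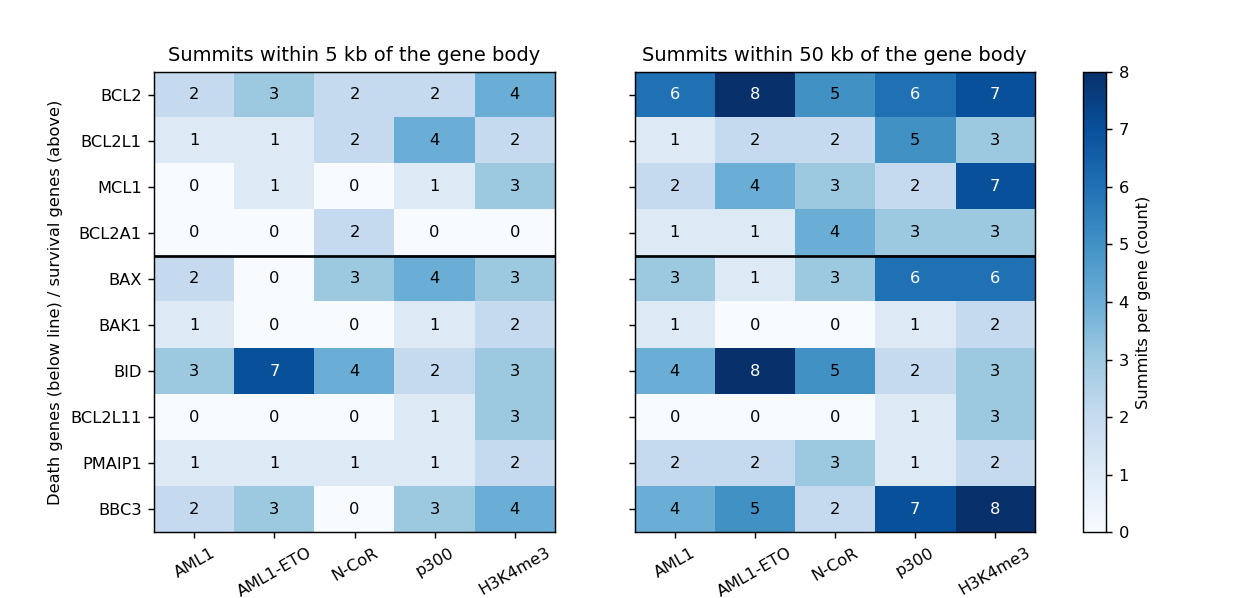
Number of summits of each peak list (columns) at each BCL2 family gene (rows), within 5 kb of the gene body on the left and 50 kb on the right; survival genes are above the line and death genes below it. BID holds 7 AML1-ETO summits within 5 kb, while BCL2L11 and BAK1 stay at 0 AML1-ETO even within 50 kb.

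BCL2, the founding survival gene, spans chr18:60790579-60987361 on the minus strand and is the longest member at 196783 bp. It held 3 AML1-ETO and 4 H3K4me3 summits, and 2 each of AML1, N-CoR and p300. Of protein-coding genes over 100 kb, 58.3% had at least 1 AML1-ETO summit and 21.5% at least 3, set beside the 3 at BCL2. All 4 proteins met at a site in intron 2, chr18:60805458-60805669, whose summits lay within 112 bp of each other and between 106 and 218 bp from an H3K4me3 summit. That site is far from the canonical start, 181494 bp downstream at the AML1-ETO summit, but 136 bp from the start of a short annotated transcript. Another AML1-ETO summit lay alone in intron 2, 12862 bp from the nearest summit of any other list. The third was 73 bp upstream of an annotated start, with p300 at 65 bp and H3K4me3 at 487 bp. AML1 and N-CoR shared a further site in intron 2, with summits 1 bp apart, where AML1-ETO was 13357 bp away.

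BCL2L1, which encodes the survival protein BCL-XL, lies at chr20:30252255-30311792 on the minus strand and held 4 p300 summits, 2 each of N-CoR and H3K4me3, and 1 each of AML1 and AML1-ETO. As few as 1.44% of protein-coding genes had 4 or more p300 summits. AML1 and AML1-ETO overlapped in intron 2, 38 bp apart, and the nearest N-CoR and p300 pair, 21 bp apart, sat 414 and 435 bp from the AML1-ETO summit. Thus the 2 pairs were neighbours that did not overlap. Near the promoter there was p300 alone, 32 bp from the canonical start and 43 bp from another, with H3K4me3 at 264 bp of a start.

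MCL1, at chr1:150533371-150552214 on the minus strand, had p300 4 bp from a start and 3 H3K4me3 summits, with neither AML1 nor N-CoR within 5 kb. Its 1 AML1-ETO summit was at the far end of the gene, 18476 bp from the canonical start and 2880 bp from a start of ADAMTSL4, with no other protein overlapping it.

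BCL2A1, a survival gene of blood cells, lies at chr15:80253234-80263538 on the minus strand and differed from every other member in having N-CoR alone. Its 2 N-CoR summits were 146 bp upstream of the start and in intron 1, and the other 4 lists were at 0 within 5 kb. Of all protein-coding genes, 0.159% (32 genes) had N-CoR with none of the other lists. The nearest AML1-ETO summit lay 52819 bp from the former and 43911 bp from the latter, and the nearest H3K4me3 summit was 46916 bp from a BCL2A1 start. The upstream window, printed above, holds GAGGAA 2 times and no TGTGGT.

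Turning to the pore formers, BAX lies at chr19:49458072-49465055 on the plus strand and held 2 AML1, 3 N-CoR, 4 p300 and 3 H3K4me3 summits, with 0 AML1-ETO. AML1 was 18 bp upstream of a start, with p300 at 11 bp from it and the nearest AML1-ETO summit 38541 bp away. Genome-wide, 71.5% of AML1 windows overlapped an AML1-ETO window (70.6 to 72.3%), so AML1 without the fusion is the less common arrangement. The 3 N-CoR summits lay downstream of BAX, each overlapping p300 or AML1, between 91 and 2782 bp from a start of FTL, the ferritin light chain gene, and could be counted to either gene. The same holds for 3 of the 4 p300 summits, 2 of the 3 H3K4me3 summits and 1 of the 2 AML1 summits, which also had FTL as the gene with the nearest start. BAK1, at chr6:33540324-33548070 on the minus strand, had 1 AML1 and 1 p300 summit 34 bp apart downstream of the gene, 8986 bp from its start for AML1, and 2 H3K4me3 summits. The nearest AML1-ETO summit was 112646 bp from a BAK1 start and the nearest N-CoR summit 208980 bp.

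BID, the BH3-only protein that caspase 8 cleaves to link death receptors to the mitochondrion, lies at chr22:18216904-18257536 on the minus strand. It held 7 AML1-ETO summits, a count reached by 1.06% of protein-coding genes (213 genes), with 3 AML1, 4 N-CoR, 2 p300 and 3 H3K4me3 summits. At least 4 N-CoR summits were found at 1.87% of genes and at least 3 AML1 summits at 3.82%. All 4 N-CoR summits overlapped AML1-ETO. They were at 2 sites in intron 1 and 2 sites upstream of the gene. The intron 1 site at chr22:18254357-18254571 joined all 4 proteins, with N-CoR 39 bp and p300 17 bp from AML1-ETO and AML1 at 115 bp. That AML1-ETO window holds GAGGAA 2 times in a row, as printed above. The site at chr22:18246305-18246437, also intron 1, carried AML1, AML1-ETO and N-CoR within 33 bp without p300. Between these sites and the upstream pair, 2 AML1-ETO summits stood without the other proteins, 604 and 77 bp from starts of BID and near H3K4me3 at 438 and 89 bp. The upstream pair lay 2475 and 2906 bp from a start. In the nearer of them N-CoR was 34 bp and p300 13 bp from AML1-ETO, and in the farther N-CoR was 19 bp away without p300. The last AML1-ETO summit lay in exon 6, the final exon, 29 bp from AML1.

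BCL2L11, encoding BIM, lies at chr2:111876955-111926021 on the plus strand and had p300 25 bp upstream of its canonical start and 3 H3K4me3 summits, with AML1, AML1-ETO and N-CoR at 0. The nearest AML1-ETO summit was 95602 bp from a start. PMAIP1, encoding NOXA, lies at chr18:57567228-57571537 on the plus strand, with p300 13 bp from a start. It had 1 AML1, 1 AML1-ETO and 1 N-CoR summit together within 30 bp just downstream of the gene, 4944 bp from a start for AML1-ETO, where p300 was 4931 bp away. BBC3, encoding PUMA, lies at chr19:47724079-47736023 on the minus strand and held 2 AML1, 3 AML1-ETO, 3 p300 and 4 H3K4me3 summits with 0 N-CoR. All 3 AML1-ETO summits were in introns 2 and 3. Of these, 2 overlapped p300, at 26 and 82 bp, and the former also lay 33 bp from AML1. The remaining AML1-ETO summit was 2 bp from the start of an annotated transcript that retains an intron.

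**Figure D2:**
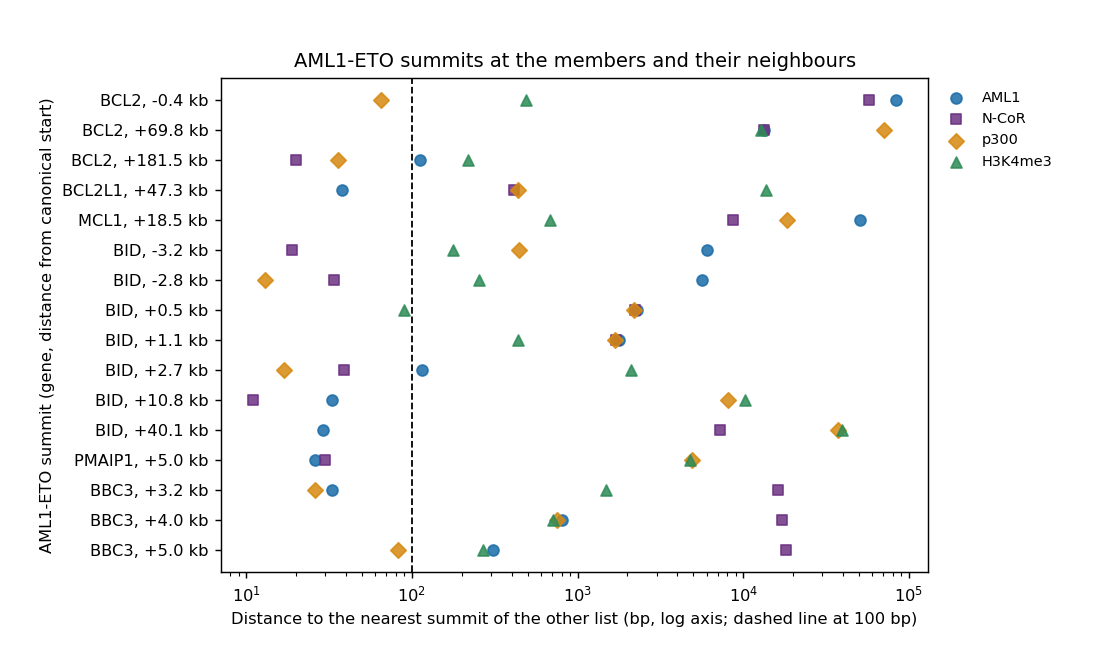
Distance in bp, on a log axis, from each of the 16 AML1-ETO summits within 5 kb of a member to the nearest AML1, N-CoR, p300 and H3K4me3 summit; each row is named by its gene and its distance from the canonical start. Points left of the dashed line at 100 bp overlap the AML1-ETO window; N-CoR falls there at 4 BID rows, 1 BCL2 row and 1 PMAIP1 row, and at none of the 3 BBC3 rows.

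When the members were grouped by role, the 6 death genes held 11 AML1-ETO summits in 180.7 kb of gene body and flank, and the 4 survival genes held 5 in 325.5 kb. The density was 0.609 per 10 kb for the death genes (0.304 to 1.09) and 0.154 for the survival genes (0.0499 to 0.359), a ratio of 3.95 whose intervals overlap. Without BID the death genes held 4 AML1-ETO summits, or 0.308 per 10 kb (0.0838 to 0.787). The number of genes with AML1-ETO was 3 of 6 death and 3 of 4 survival genes. For AML1 the densities were 0.498 (0.228 to 0.946) and 0.0922 (0.019 to 0.269), with 5 of 6 and 2 of 4 genes. For p300 they were 0.664 (0.343 to 1.16) and 0.215 (0.0865 to 0.443), with 6 of 6 and 3 of 4 genes. N-CoR gave 0.443 (0.191 to 0.872) and 0.184 (0.0677 to 0.401), with 3 of 6 and 3 of 4 genes. H3K4me3 gave 0.941 (0.548 to 1.51) and 0.277 (0.126 to 0.525), with 6 of 6 and 3 of 4 genes. BCL2 makes up most of the length of the survival genes. Without it the ratio of death to survival genes went from 2.41 to 1.31 for N-CoR, from 3.09 to 1.58 for p300 and from 3.4 to 2.24 for H3K4me3, while it was 3.6 in place of 3.95 for AML1-ETO and 5.91 in place of 5.4 for AML1.

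Over all protein-coding genes, short genes had higher densities than long ones, and the part of length in the gap between the roles was not tested. All 6 death genes are under 50 kb, while BCL2 and BCL2L1 are longer, and the 13369 protein-coding genes under 50 kb had 0.205 AML1-ETO summits per 10 kb against 0.0603 for genes over 100 kb. Against the short genes, the lower bound of the death genes was above the background for every list (0.135 with AML1, 0.205 with the fusion, 0.112 with N-CoR, then 0.226 for p300 and 0.408 for H3K4me3). Without BID it was below it for AML1-ETO and N-CoR. The death counts of the lists other than AML1-ETO also include summits at BAX that had FTL as the gene with the nearest start. Bounds without BAX were not computed. Within 50 kb the ratio of death to survival genes lay between 0.882 and 1.33: 1.01 for AML1-ETO and 1.33 for AML1, 0.882 for N-CoR, with p300 at 1.07 and H3K4me3 at 1.14. Without BID the AML1-ETO ratio was 2.0 within 5 kb and 0.63 within 50 kb.

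**Figure D3:**
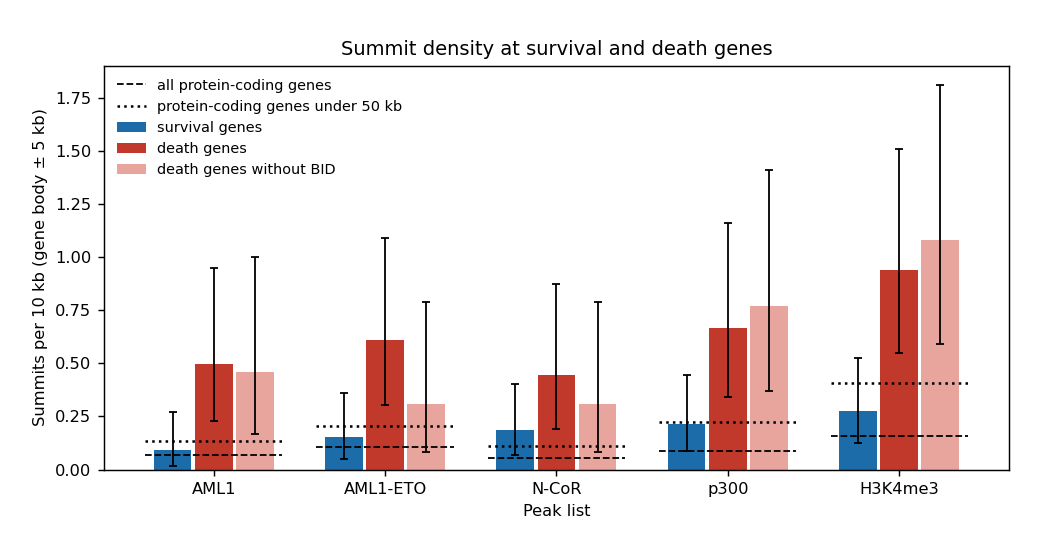
Summits per 10 kb of gene body and 5 kb flanks for each peak list, at survival genes, death genes and death genes without BID; error bars are exact Poisson 95% intervals (counting error only), the dashed line is all protein-coding genes and the dotted line those under 50 kb. For AML1-ETO, the bar of the death genes falls from 0.609 to 0.308 without BID.

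At the starts, H3K4me3 lay within 1 kb of an annotated start in 6 of 6 death genes and 3 of 4 survival genes, against 62.3% of all protein-coding genes, with BCL2A1 the exception. A p300 summit was within 1 kb of a start in 4 of 6 death genes (BAX, BCL2L11, PMAIP1 and BBC3) and 3 of 4 survival genes (BCL2, BCL2L1 and MCL1), against 37.0%. N-CoR was within 1 kb of a start at 0 of 6 death genes and at 2 of 4 survival genes, BCL2 and BCL2A1, against 13.3%. For AML1-ETO these were 3 of 10 members (BCL2, BID and BBC3) against 23.3%, and for AML1 3 of 10 (BCL2, BAX and BBC3) against 18.6%. At BCL2 the AML1 and N-CoR starts were of the short transcript in the far part of the gene, not of the canonical start, and at BBC3 the AML1 and AML1-ETO start was that of the transcript retaining an intron.

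Summits of the 4 proteins that lay within 100 bp of each other were chained into 35 sites, 14 at survival and 21 at death genes. H3K4me3 was within 1 kb of the mean summit position at 7 of the 14 and 15 of the 21. The most frequent kind was p300 alone, at 8 sites, of which 7 were near H3K4me3. AML1-ETO stood alone at 5 sites, 4 of them near H3K4me3. N-CoR stood alone at 3 sites, at BCL2L1 and BCL2A1, none near H3K4me3. For comparison, of all summits near protein-coding genes, whether alone or not, H3K4me3 was within 1 kb of 77.4% for p300, 33.9% for AML1-ETO and 33.1% for N-CoR. All 4 proteins met at 2 sites, the intron 2 site of BCL2 and the intron 1 site of BID, where AML1 was 112 and 115 bp from AML1-ETO and was joined to it through N-CoR or p300.

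Co-regulator overlap at AML1-ETO summits was next set beside the whole list. N-CoR overlapped 6 of 16, or 37.5% (15.2 to 64.6%), close to 37.7% of AML1-ETO summits near any protein-coding gene. Without BID it was 2 of 9 (22.2%, 2.81 to 60.0%). By role it was 5 of 11 at death genes (4 of these at BID) and 1 of 5 at survival genes. The p300 share was also 6 of 16 (37.5%, 15.2 to 64.6%), against 23.5% near protein-coding genes, with 4 of 11 at death and 2 of 5 at survival genes, and 4 of 9 (44.4%) without BID. H3K4me3 was within 1 kb of 9 of 16 (56.2%, 29.9 to 80.2%), against 33.9%. Each background value lay inside the interval of the members. In the other direction, AML1-ETO overlapped 6 of 14 N-CoR summits (42.9%, 17.7 to 71.1%) against 69.2% near protein-coding genes. It overlapped 5 of 8 at death genes (62.5%, 24.5 to 91.5%) and 1 of 6 at survival genes (16.7%, 0.421 to 64.1%). For AML1, 5 of 12 summits overlapped AML1-ETO (41.7%, 15.2 to 72.3%), against 69.8%. The 2 background shares lay inside the intervals over all members. The N-CoR one was above the interval of the survival genes within 5 kb. It was also above that of all members without BID, where AML1-ETO overlapped 2 of 10 (20.0%, 2.52 to 55.6%). The low survival share is that of the 5 kb view, and a share within 50 kb was not computed. Between 5 and 50 kb, N-CoR summits overlapped AML1-ETO downstream of BCL2 (11, 13 and 14 bp apart), near MCL1 (1 and 9 bp) and near BCL2A1 (16 bp). Those near MCL1 lay in ADAMTSL4 and ENSA, and the one near BCL2A1 lay in ST20-MTHFS. A further N-CoR summit near MCL1 and another near BCL2A1 did not. At death genes in that range, N-CoR overlapped AML1-ETO near BID and BBC3 but not near PMAIP1.

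The sequence of the N-CoR windows was set beside that of the whole list. GAGGAA was in 10 of 14 windows (71.4%, 41.9 to 91.6%), against 29.9% of N-CoR windows near protein-coding genes and 30.8% of all. Leaving out BID left 7 of 10 (70.0%, 34.8 to 93.3%). GAGGAA was in 5 of the 8 N-CoR windows without AML1-ETO and in 5 of the 6 with it. AGGAAG was in 9 of 14 (64.3%, 35.1 to 87.2%), against 45.0%, which lay inside the interval. TGTGGT was in 1 of the 14, against 17.9% near protein-coding genes. For AML1-ETO the share with TGTGGT was 5 of 16 (31.2%), against 29.0%, and GAGGAA had the same count, against 24.7%. AML1 windows held TGTGGT in 6 of 12 (50.0%, 21.1 to 78.9%), against 36.9%.

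Within 50 kb, the largest change from the 5 kb view was at BCL2, which went from 3 to 8 AML1-ETO summits. The added summit upstream of BCL2 lay 420 bp from a start of KDSR. All 4 proteins met at 3 sites downstream of the BCL2 gene, 11010, 23046 and 24601 bp beyond its end. The summits at these sites fell within 61, 63 and 41 bp. Their nearest H3K4me3 summits were at least 23609 bp from any of these summits. No protein-coding gene was annotated at these sites, and among protein-coding genes BCL2 had the nearest start. BBC3 had a like site 11.5 kb upstream of the gene, chr19:47747450-47747571, where the 4 summits fell within 22 bp, so that N-CoR was near BBC3 in the wider view with 2 summits. Both printed windows from these sites, one at BCL2 and the other at BBC3, hold none of the 3 motifs. Of the other BCL2 sites, the one farthest from the gene holds TGTGGT in the window of each of the 4 proteins, and GAGGAA in that of AML1. An AML1-ETO window overlapped by all 3 other proteins was found at 0 of 16 summits within 5 kb (exact upper bound 20.6%), at 5 of 15 between 5 and 50 kb (33.3%, 11.8 to 61.6%), and at 11.8% of the whole list. They were 4 of 10 at survival genes (40.0%, 12.2 to 73.8%), of which 3 were at BCL2, and 1 of 5 at death genes (20.0%, 0.505 to 71.6%).

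**Figure D4:**
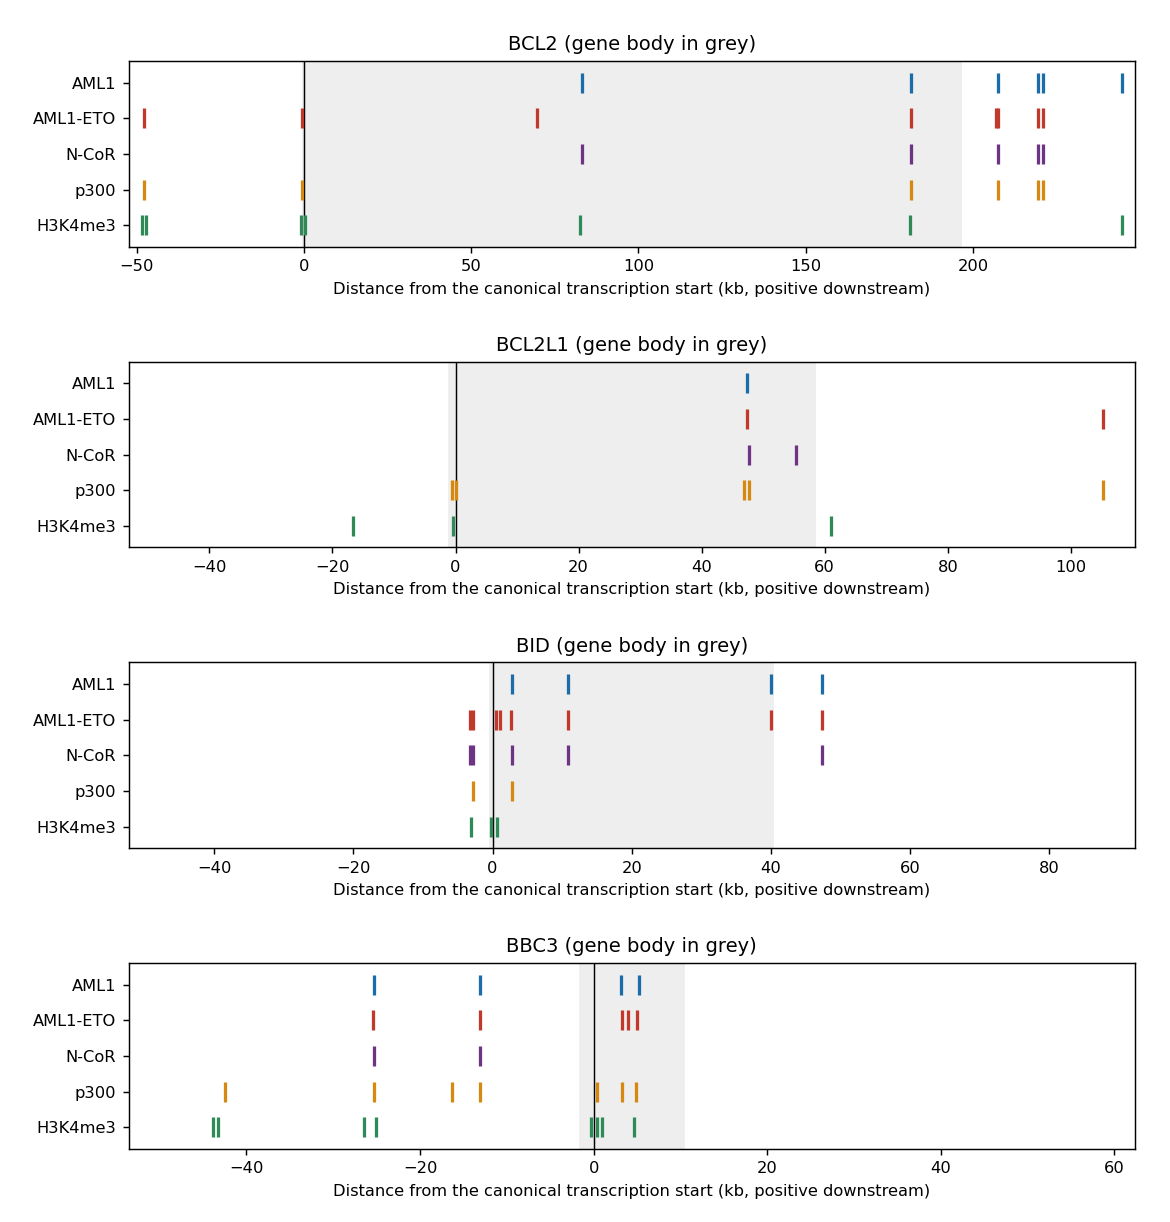
Position of each summit within 50 kb of BCL2, BCL2L1, BID and BBC3, as distance in kb from the canonical transcription start (positive downstream), with a row for each peak list and the gene body in grey. At BCL2 the columns of 4 proteins lie at the far end of the gene and beyond it, while at BID there is 1 such column, in intron 1.

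Other genes of the apoptosis pathway were taken from lists of 33 genes. AML1-ETO lay within 5 kb of 19 (57.6%), AML1 of 17 (51.5%), N-CoR of 13 (39.4%), p300 of 20 (60.6%) and H3K4me3 of 29 (87.9%). The steps from death receptors to BID held AML1-ETO at 7 of 8 genes and N-CoR at 5 of 8, where all protein-coding genes gave 41.3% and 26.7%. Of the other BCL2 family genes 6 of 11 held AML1-ETO and of the steps after the mitochondrion (cytochrome c, caspases and their inhibitors) 4 of 11. The genes with the most AML1-ETO summits were CFLAR, the caspase 8 inhibitor, with 6, TNFRSF1A, the TNF receptor, with 5, FOXO3, a transcription factor that activates BCL2L11, with 4, TNFRSF10B, a TRAIL receptor, with 3, and BCL2L13 with 2, a count that BIK, FADD and TNFRSF10A shared. CFLAR also had 5 AML1 and 5 N-CoR summits, and TNFRSF1A 3 and 4. The windows of CFLAR, CASP10 and CASP8, which are neighbours, overlap in part, as do those of BIRC2 and BIRC3, so a summit can count for more than 1 of them. The flanks of BCL2L13 and BID also overlap, and the AML1-ETO summit in exon 6 of BID is 1 of the 2 counted for BCL2L13.

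By the pattern of counts over the 5 lists, the most similar gene of these 33 was FOXO3 for BCL2, with a summed difference of 0.737 on the log2(summits + 1) scale, BAD for BCL2L1 with 1.64, BCL2L2 for MCL1 with 0.585 and BCL2L10 for BCL2A1 with 1.58. BCL2L10 was at 0 in every list, as were HRK and BCL2L15, which tie with it and come after it by symbol.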

How the data were processed

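Binding in Kasumi-1 cells was taken from 5 deposited peak lists (AML1 and its fusion AML1-ETO, N-CoR, p300, H3K4me3), which hold positions only. The authors aligned reads to GRCh37 (hg19), pooled 2 biological replicates per antibody and called peaks with MACS at p < 1e-20. The submitters' processing notes name CASAVA 1.6, Bowtie 0.12.8 and MACS2 2.0.10.20131216. The control used in calling is not given in the sources used here, nor is the meaning of the peak numbers. H3K27me3 and input were not analysed here.

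Summits (window start plus 50 bp) were counted within 5 kb and 50 kb of gene bodies from GENCODE release 44 lifted to GRCh37. Windows overlap when they share at least 1 bp, that is, summits under 100 bp apart. Intervals are exact Clopper-Pearson for shares and exact Poisson for densities (SciPy 1.17.1). Sequences were read from GRCh37 with pysam 0.24.0. Counting was tested on simulated summits. Named were all 10 members, the 5 other apoptosis genes with the most AML1-ETO summits and the genes most similar to the survival genes. Apoptosis genes that tied with these, and neighbours whose windows overlap, were named as well. The members and lists were chosen with earlier results of these data known, and backgrounds by gene length, near genes and at starts were added after the values were seen. The regulators among the other apoptosis genes are not reported here as a class.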

Additional observations from a re-analysis of the deposited data

How the results depend on the processing

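Of 78 alternative values, 70 stayed within 1.5 times of the main count or inside its interval and 8 moved. These values are counts, densities and shares without a sign, so none could reverse. A count cannot fall with a wider flank or rise when summits or genes are left out. The interval of both co-regulator shares was 15.2 to 64.6%, so large shifts stayed inside it. The tally is therefore no measure of stability. The AML1-ETO count at survival genes (5) was 15 within 50 kb, 2 within 5 kb of any start and 2 in the 50% of each list with the lowest peak numbers. With each survival gene left out in turn it ranged from 2 (without BCL2) to 5. The count at death genes (11) was 3 in that 50%, and ranged from 4 (without BID) to 11 with each death gene left out. The density at death genes (0.609 per 10 kb) was 0.222 within 50 kb and 0.166 in that 50%, and 0.308 without BID. For AML1-ETO, the ratio of death to survival genes with all genes kept ranged from 1.01 within 50 kb to 4.74 for gene bodies with no flank, and was 2.7 in that 50%. Within 50 kb the survival genes had the higher density for N-CoR (ratio 0.882), and for AML1-ETO when BID was left out (0.63). With all genes kept, the other lists gave 1.01 to 1.33. The share of AML1-ETO summits overlapped by N-CoR (37.5%) was 60.0% in that 50% (3 of 5) and 22.2% without BID. The order of the lists is not explained in the sources used here, so the lowest numbers are not known to be a stricter set. With a single pooled list per antibody, a stricter threshold could not be tried, and no paired analysis was possible because no replicate lists were used. The lists carry no depth for a summit, and an absent summit means none passed the authors' threshold.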

Other observations

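Several sites between 5 and 50 kb of the members lay in or near other genes. Upstream of MCL1, AML1, AML1-ETO and N-CoR met within 17 bp in ENSA, 31.9 kb from the gene body, without p300. Downstream of BCL2A1, all 4 proteins met within 31 bp, 42.3 kb away in ST20-MTHFS with H3K4me3 876 bp from the nearest of them. Downstream of BID, AML1, AML1-ETO and N-CoR met within 48 bp, 7.04 kb away in BCL2L13, itself a BCL2 family gene. Near BAX, AML1, AML1-ETO and p300 met within 61 bp, the nearest 28 bp from a start of GYS1, and upstream of BBC3 all 4 proteins met within 114 bp, between 8 and 71 bp from a start of CCDC9. Among the sites in no protein-coding gene were AML1 and AML1-ETO 29 bp apart, 17.2 kb downstream of PMAIP1. Another was AML1-ETO and p300 61 bp apart, 46.8 kb downstream of BCL2L1 and 12348 bp from a start of ID1.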
